A study of Apostichopus japonicus with 9 samples.

Results

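Gene expression at dissolved oxygen of about 2 mg/L was set against expression at about 4 mg/L in respiratory trees of Apostichopus japonicus, a sea cucumber. The comparison used 6 of the 9 libraries of the series: DO2 libraries 1 to 3 from animals at about 2 mg/L, which the submitters call hypoxia, and DO4 libraries 1 to 3 from animals at about 4 mg/L. Both groups spent 3 days at their level, reached by bubbling nitrogen through the sea water. Each library is 1 pool of equal amounts of RNA from 3 animals, so the spread between animals inside a pool cannot be seen, and the labels name no strain, age or tank. The other 3 libraries (DO8) came from control animals at about 8 mg/L and serve below as a background level. Of the 27214 gene models listed in the whole series, 26374 were listed in at least 1 of the 6 libraries, 13747 in all 6, and 13933 had enough counts to be tested.

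The respiratory tree is a branched tube that opens into the cloaca and is pumped full of sea water, and it is a main site of gas exchange in this animal. In animals generally, cells sense low oxygen through prolyl hydroxylases, which use oxygen to mark the transcription factor HIF for breakdown. When oxygen is short HIF persists and raises genes of glycolysis and oxygen supply. The deposited tables name gene models only by scaffold and number, and 0 of these identifiers matched the 30661 RefSeq genes of the species (assembly ASM3797524v1). Neither those genes nor the defining markers of the tissue could therefore be looked up, no sequence is shown, and the models are described by their values.

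The DO2 libraries held 2902187, 2429274 and 4348843 counts and the DO4 libraries 1536295, 2515291 and 3427179. They listed 20060 to 21142 models in DO2 and 17420 to 21198 in DO4. DO2 library 3 stood apart, with 52.7% of its counts in its 10 most abundant models, against 12.9% to 19.1% in the other 5 libraries. DO4 library 1 was the shallowest. A count of 0 there allows a level of up to 2.55 CPM (CPM, here counts relative to a library size corrected by TMM, a scaling that allows for dominant models; floor of 3 counts, counting error only), against 0.701 to 1.52 CPM in the other 5. None of 5 library measures (total count, models listed, share of the 10 most abundant models, effective number of models, scaling factor) separated DO2 from DO4. Their exact two-sided permutation p ran from 0.5 to 0.9 (adjusted 0.625 to 0.9), in a design of 3 against 3 that cannot go below 0.1.

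Libraries of DO2 and DO4 were about as alike across groups as within them. Across models, Pearson's r between the log2 CPM of a pair averaged 0.768 within DO2 (0.756 to 0.781, 3 pairs), 0.742 within DO4 (0.706 to 0.771, 3 pairs) and 0.765 between a DO2 and a DO4 library (0.723 to 0.787, 9 pairs). The pair least alike was DO4 library 1 with DO4 library 3, and the pair most alike was DO2 library 1 with DO4 library 3, which belong to different groups. These r describe the libraries and carry no test, since pairs share libraries and models are not independent. Expressed per model, the absolute log2 difference had a median of 0.67 to 0.76 between DO2 libraries, 0.70 to 0.97 between DO4 libraries and 0.63 to 0.86 between groups.

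**Figure D1:**
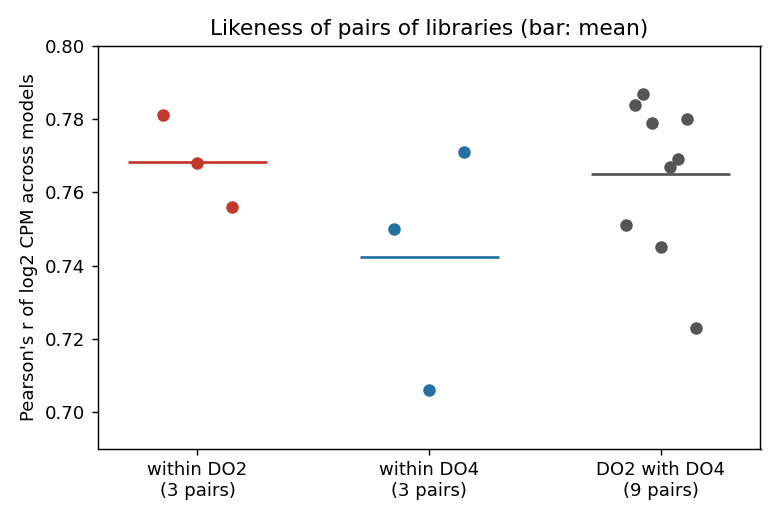
Pearson's r of log2 CPM over 13933 models for each pair of libraries (points, with the mean as a bar), within DO2, within DO4 and between the groups; the vertical axis does not start at 0. The 9 pairs between groups span 0.723 to 0.787 and cover the range of the DO2 pairs.

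Pools of 1 group differed widely in many models. The SD of log2 CPM over 3 libraries had a median over models of 0.63 in DO2 and 0.72 in DO4, and 56.2% of models were wider in DO4. With DO2 library 3 and DO4 library 1 both left out, 2 libraries on each side, the medians were 0.49 in DO2 and 0.51 in DO4. The median absolute log2 fold change between the groups was 0.44. Among the 4942 models with at least 20 CPM on average over all 9 libraries, 244 differed at least 16-fold between pools of DO2 and 209 between pools of DO4, while 35 differed that much between the DO2 and DO4 means. In the DO8 controls 151 of these models showed such a range between pools. A mean of 3 pools varies less than single pools do, so differences between the group means, whether the median or the 16-fold count, are not on the same footing as the values within groups.

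The log2 fold change of DO2 over DO4 was centred at -0.03, with quartiles at -0.47 and 0.42 and the 5% and 95% points at -1.32 and 1.46. Its median standard error was 0.62. A fitted change of at least 2-fold was reached by 2631 models, 1331 higher (9.55% of those tested) and 1300 lower (9.33%) in DO2. At 4-fold or more there were 402 higher (2.89%) and 245 lower (1.76%), and at 8-fold or more 156 higher (1.12%) and 66 lower (0.474%). The 2-fold balance depended on the scaling, while the 8-fold balance changed little with it. With upper-quartile factors 1237 models were higher and 1391 lower at 2-fold, and 152 higher and 69 lower at 8-fold. A limma fit of log2(FPKM + 1) differs in filter, added constant and method as well as in scaling. It gave 870 higher and 2290 lower at 2-fold, 156 and 261 at 4-fold, and 31 and 27 at 8-fold. Of the models past 2-fold, 24.1% had no overlap between the DO2 and DO4 libraries, and of those past 8-fold 34.2%, so most large fitted changes had at least 1 pool of each group at the same level or in reversed order.

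The edgeR quasi-likelihood test called 0 of the 13933 models after Benjamini-Hochberg adjustment (threshold 0.05; 0% called), with a lowest adjusted p of 0.632. At an unadjusted p under 0.05 it found 684 models (4.91%), 410 higher (2.94%) and 274 lower (1.97%) in DO2. A threshold of 0.05 alone would pass about that share of models where the groups did not differ. The count of 684 became 753 of 14976 tested without DO2 library 3 and 1165 of 15220 without DO4 library 1. Without DO4 library 1 the share was thus larger than 4.91% and above that threshold. DESeq2 called 27 of the 13707 models to which it gave an adjusted p (0.197%). In DO2 17 of them were higher (0.124%) and 10 lower (0.073%). A limma fit of log2(FPKM + 1) called 1. On FPKM, which carries no correction for the dominant models of DO2 library 3, the median model lay at a log2 difference of -0.31 and the balance of the 768 models at an unadjusted p under 0.05 turned, with 185 higher and 583 lower.

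**Figure D2:**
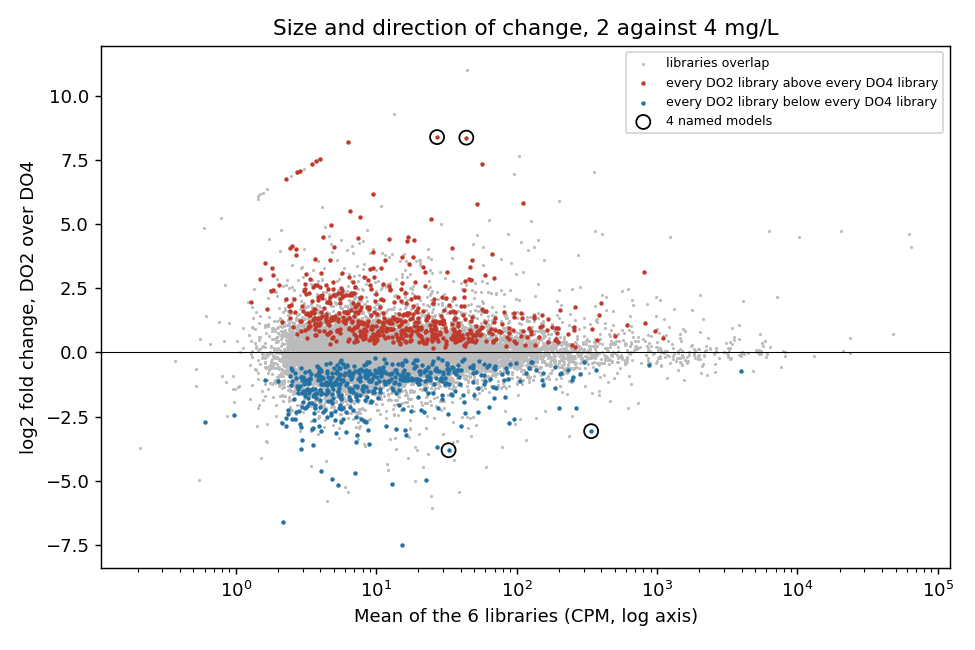
Fitted log2 fold change of DO2 over DO4 (vertical) against the mean CPM of the 6 libraries (horizontal, log axis) for the 13933 models tested; red points have every DO2 library above every DO4 library, blue points the reverse, and circles mark the 4 models named in the text. Changes of 8-fold or more are more often upward (156 models) than downward (66) in this fit. By limma on log2(FPKM + 1), which also differs in filter and added constant, they are 31 against 27.

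Agreement of the pools was read from the 9 pairings of a DO2 with a DO4 library. In 594 models (4.26%) the DO2 library was higher in all 9 pairings, and in 485 (3.48%) the DO4 library was. The 2 sets make up 7.74% of the models tested. If the group made no difference, 3 against 3 libraries would separate fully in a share of 0.1 of arrangements, both directions together. The 7.74% is below that share. Models split near the middle were the most common, with 2265 at 4 and 2254 at 5 pairings won by DO2. Of the 684 models at an unadjusted p under 0.05, 442 (64.6%) had no overlap and 242 overlapped in at least 1 pairing. Conversely 637 models without overlap did not reach that p. No single pool led the higher models: DO2 libraries 1, 2 and 3 were the highest of their group in 33.2%, 32% and 34.9% of the 410 models. Among the 274 lower models DO4 library 2 was the highest DO4 library in 41.2%, against 31% of all models tested. Among the higher models DO4 library 1, the shallowest, was the lowest DO4 library in 42%, against 40.3% of all models tested; the part of depth in this was not tested.

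**Figure D3:**
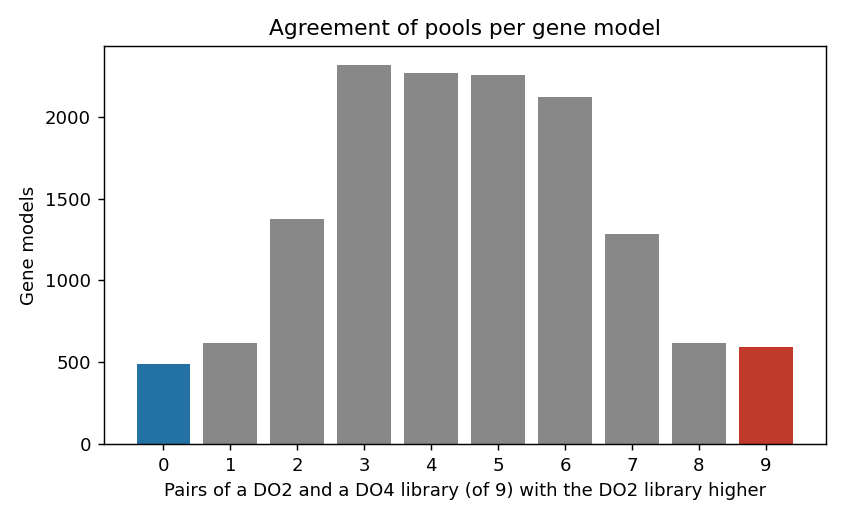
Number of gene models (vertical) by how many of the 9 pairings of a DO2 with a DO4 library had the DO2 library higher (horizontal); the coloured bars at the ends are the models that DO2 won in all or in none. The bar at 9 holds 594 models and that at 0 holds 487, which include ties; the bulk lies at 3 to 6.

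The widest separations are illustrated by 4 models. They were chosen among models averaging at least 20 CPM, which the 2 models higher in DO2 reached through DO2 alone. The choice was by the ratio of the lowest library of the higher group to the highest library of the lower group. Their separation is therefore a description, and the p-values given for them below are no separate support for it. Model evm.model.scaffold954.8 had 68.99, 45.57 and 48.06 CPM in the DO2 libraries, against 0, 0.32 and 0 CPM in the DO4 libraries. The 3 DO2 pools were close together in CPM, and DO4 held 1 count in all. In FPKM, without the TMM scaling, DO2 libraries 1 to 3 stood further apart, at 43.76, 27.24 and 12.74. The ratio of pooled levels was 481-fold, with an exact 95% counting interval of 85.9 to 19000. That interval covers counting error only and leaves out the spread between pools. The ratio of group means, 512, was 341 without DO4 library 1 or 3 and has no value without DO4 library 2, which held the 1 count. Its log2 fold change was 8.41 ± 1.77 (SE), with an edgeR unadjusted p of 0.000859 and adjusted p of 0.971 and a DESeq2 adjusted p of 0.000793. The DO8 pools, at 31.11, 40.01 and 0 CPM, lay on both sides: 2 near the DO2 level and 1 with no count.

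Model evm.model.scaffold1622.1 had 81.22, 20.21 and 161.39 CPM in DO2, against 0, 0 and 0.47 CPM in DO4. All 3 DO2 pools held it at well separated levels, and neither DO4 nor DO8 held more than traces: 2 counts in DO4 and 0 in DO8. The ratio of pooled levels was 352-fold (exact 95% counting interval 97 to 2910, again without the spread between pools). The log2 fold change was 8.39 ± 1.20 with an edgeR adjusted p of 0.632. The ratio of group means of 563 was 326 without DO2 library 3 and 375 without DO4 library 1 or 2, and has no value without DO4 library 3, which held both counts. DESeq2 gave this model an adjusted p of 2.5e-06, and it is the model called by limma on log2(FPKM + 1), at an adjusted p of 0.0242. Both fits used the libraries on which the model was chosen.

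Models evm.model.scaffold300.6 and evm.model.scaffold300.5, which carry consecutive numbers on 1 scaffold, were the widest separations in the other direction. The first had 7.53, 3.17 and 2.02 CPM in DO2, against 34.04, 114.71 and 35.27 CPM in DO4, a mean 14.5-fold lower in DO2. The second had 53.31, 139.48 and 23.78 CPM in DO2, against 805, 578.01 and 438 CPM in DO4, a mean 8.41-fold lower. Their log2 fold changes were -3.81 ± 0.98 and -3.07 ± 0.82 (SE), with an edgeR adjusted p of 0.971 for both and DESeq2 adjusted p of 0.0252 and 0.0442. The ratio for the first was 23.6 without DO2 library 1 and 8.17 without DO4 library 2, and that for the second 15.7 without DO2 library 2. In the DO8 pools evm.model.scaffold300.6 stood at 43.82, 31.63 and 2.8 CPM. There evm.model.scaffold300.5 stood at 201.25, 290.63 and 37.76 CPM. In both models DO8 library 3 was at the DO2 level and the other DO8 libraries were higher.

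The preceding model, evm.model.scaffold300.4, had 12.23, 26.94 and 4.05 CPM in DO2, against 68.93, 163.65 and 19.62 CPM in DO4. Its groups overlapped, with DO2 library 2 above DO4 library 3, and its log2 fold change was -2.54 ± 1.09. Estimated counts with decimals show reads divided among models. Whole numbers (no decimal part) made up 0 of the 9 listed values of evm.model.scaffold300.5 and 2 of the 9 of evm.model.scaffold300.6. They made up 0 of the 6 of evm.model.scaffold954.8 and 0 of the 4 of evm.model.scaffold1622.1. Of all values listed in a library they made up 50.5% to 56%. That share covers models of every level, and none was computed for models of like level. Levels of single models that share reads with a near copy are uncertain.

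**Figure D4:**
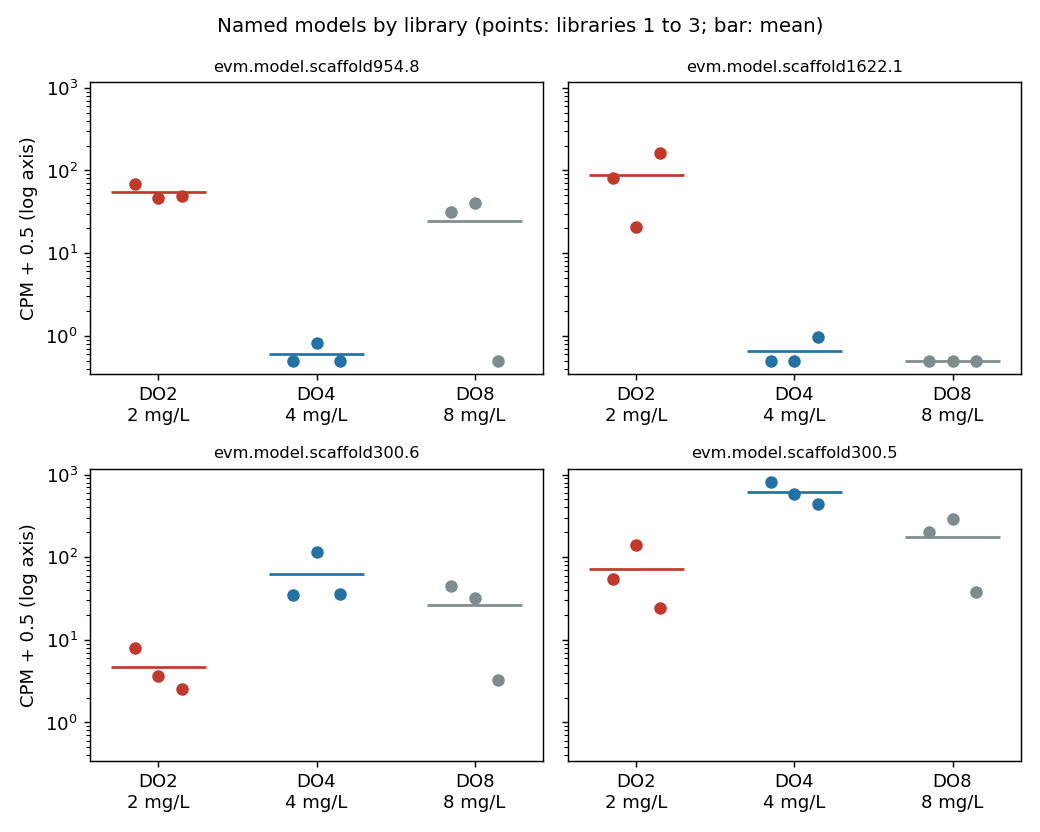
CPM + 0.5 (log axis) of the 4 named models in each library of DO2, DO4 and DO8 (points, libraries 1 to 3 from left to right, with the mean as a bar). DO2 and DO4 do not overlap in any panel, while the DO8 points of 3 models reach from the level of one group to or towards the level of the other.

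The models ranked after the 2 named in each direction were less extreme. Among the higher ones, the lowest DO2 library was at most 13.4 times the highest DO4 library (0.5 CPM added). Among the lower ones, the reverse ratio was at most 2.52. The ranges below are for the first 12 of each direction and so include the named models. Of the 4924 models averaging at least 20 CPM over the 6 libraries, 227 were higher (4.61%) and 133 lower (2.7%) in DO2 without overlap, against 4.26% and 3.48% of all models tested. That average includes the libraries compared, so a model high in 1 group can reach 20 CPM through that group. In the first 12 higher ones, the lowest DO2 library exceeded the highest DO4 library by 1.98 to 56.3 times, and the ratio of means was 3.59 to 562. In the first 12 lower ones these ratios were 1.52 to 4.3 and 1.7 to 14.5. A DO4 library had no count in 5 of the 12 higher models, and no DO2 library lacked counts in any of the 12 lower ones. The edgeR adjusted p was 0.632 to 0.971 among the higher and 0.971 among the lower. DESeq2 called 8 of the 12 higher and 3 of the 12 lower models, against 0.197% of all models to which it gave an adjusted p. The models were ranked on the gap in the same libraries, so these calls are no separate support.

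Of the most strongly counted transcripts, most differed little between the groups. The 50 models with the most counts took 31.2%, 31.7% and 64.4% of the counts in DO2 libraries 1 to 3, against 37.8%, 28.8% and 27.6% in DO4 libraries 1 to 3. Their median absolute log2 fold change was 0.22, against 0.44 over all models, and 33 of the 50 were below 0.5. The DO4 pools disagreed about them: 31 of the 50 were highest in DO4 library 1, at a median of 1.91 times the mean of the other 5 libraries, and in 29 of these DO4 library 2 or 3 was the lowest of all. As plain shares of all counts, 22 of the 50 were highest in DO4 library 1. The coefficient of variation had a median over the 50 models of 20% between DO2 pools and 54.3% between DO4 pools. DO2 library 3 was the highest in 15.

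Of these 50 models 5 had an unadjusted p under 0.05 (10%, all higher in DO2, against 2.94% of all models), and in each 1 library made the difference. The 50 were ranked on the mean of the same 6 libraries, so a model can enter through 1 high library. For example, evm.model.scaffold661.14 had 35601 CPM in DO2 library 3 and 55 to 653 CPM in the others. The 10% is therefore no measure of change among abundant models. They are the dominant models of DO2 library 3, numbers 8, 9 and 10 of scaffold688 and numbers 14 and 15 of scaffold661 among the models beginning with evm. The most counted, evm.model.scaffold688.8, had 9052, 1507 and 355948 CPM in DO2, against 7613, 5506 and 7850 CPM in DO4. DO2 library 3 was far above every other pool, and DO2 library 2 was the lowest of the 6. The log2 fold changes of the 5 models were 4.13 to 4.73 with all libraries and -0.41 to -0.32 without DO2 library 3, so their direction turned. One of the 50 models had no overlap between groups, with a log2 fold change of -0.71.

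**Figure D5:**
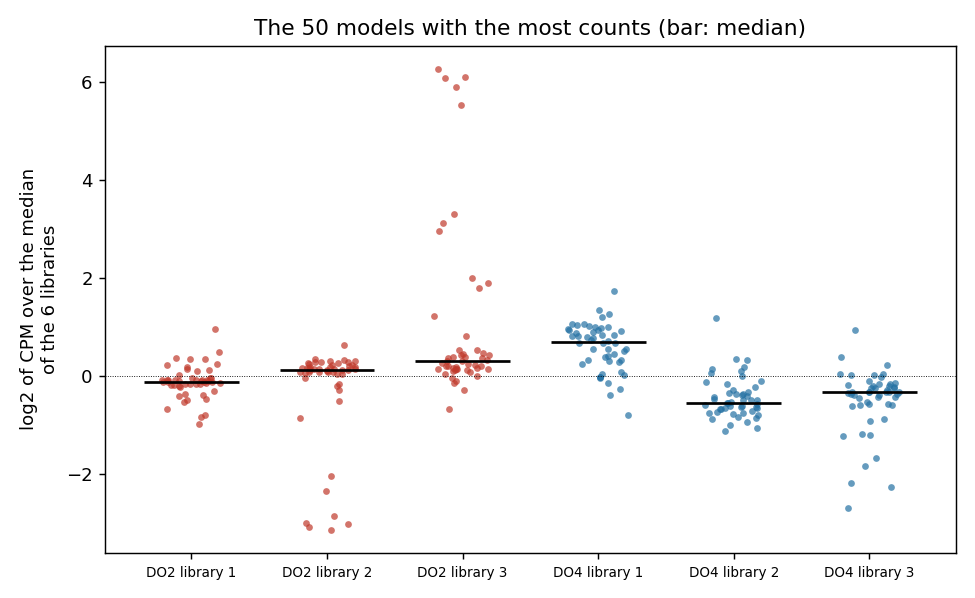
Log2 of CPM relative to the median of the 6 libraries for the 50 models with the most counts (points; bars are medians), by library. Most models are raised together in DO4 library 1, and a few lie far up in DO2 library 3.

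Grouping the models by what the tables give showed a higher share of upward changes among strongly counted models. The quartiles of level rest on the mean CPM of the same 6 libraries. A model raised in 1 group or library can enter the highest quartile through that rise, so this share is not independent of the change. In the quartile of models with the highest mean CPM (30.4 or more), 4.11% were higher and 1.89% lower in DO2 at an unadjusted p under 0.05. In the lowest quartile (up to 5.82 CPM) these shares were 2.38% and 1.84%. With upper-quartile factors the highest quartile had 3.65% higher and 2.21% lower, and on FPKM the balance turned, with 0.815% higher and 3.71% lower. The median log2 fold change was 0.03 in the highest quartile and -0.12 in the lowest. Spread was smaller at higher levels, the median SD being 0.54 in DO2 and 0.64 in DO4 in the highest quartile, and 0.76 in DO2 and 0.87 in DO4 in the lowest. Without overlap were 7.18% of the models in the highest quartile and 9.07% in the lowest. Length quartiles differed less, with 7.18% of the longest and 8.38% of the shortest models without overlap. Lengths are mostly coding lengths, since 93.5% are divisible by 3. By the first word of the identifier, 7.74% of the 13289 models beginning with evm, 8.14% of the 381 beginning with add and 7.6% of the 263 beginning with mRNA had no overlap.

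Few models were counted in 1 group only. With at least 3 counts in every DO2 library and 0 in every DO4 library there were 19 models, and in the reverse direction 12. Their counts were low, at most 94 counts summed over the DO2 libraries and 58 over the DO4 libraries. Of the 19 models, 17 had counts in DO8, as had 10 of the 12. After thinning every library to 1536295 counts the numbers were 6 and 8, so that the direction with more models turned.

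The DO8 libraries are not part of the DO2 and DO4 means, but they shared the filter, the scaling and the estimate of spread. Fitting DO2 and DO4 alone gave 381 models at an unadjusted p under 0.05 and 915 without overlap, of 12148 tested. Among the 594 models higher in DO2 without overlap, the DO8 mean was nearer to DO2 in 68.5%, against 55.7% of all models tested. Among the 485 lower in DO2 it was nearer to DO2 in 51.1%. For 233 of the 594 (39.2%) and 201 of the 485 (41.4%), the 3 DO8 libraries alone spanned the whole gap between the groups, with 1 at or beyond the nearest DO2 library and another at or beyond the nearest DO4 library. All DO8 libraries sat with or beyond the DO2 side in 178 of the higher models, and with or beyond the DO4 side in 63. Of the lower models these were 89 on the DO2 side and 79 on the DO4 side.

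Few models at an unadjusted p under 0.05 between 2 and 4 mg/L had a steady order of the 3 oxygen levels, and none of them passed adjustment. Of the 684 models at an unadjusted p under 0.05, the DO4 mean lay between those of DO2 and DO8 in 75 (11%), below both in 374 (54.7%) and above both in 235 (34.4%). Over all models tested it lay between in 30.8%, below both in 35.8% and above both in 33.4%. Models chosen for a wide gap between DO2 and DO4 have more room for DO8 between them by construction, so the lower share with DO4 in the middle is not a finding of its own.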

How the data were processed

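Poly(A) RNA was sequenced on the BGISEQ-500, per the labels' protocols. The deposited tables hold the authors' expected counts per gene model, not normalized, and FPKM values, per the file headers. Per the submitters' processing notes CASAVA 1.5 was used; the aligner, counter and build were not given in the sources used here. Groups and replicate numbers came from the sample titles. The labels record no tanks or batches, and a p-value here reflects how far pools of a group differ, which may be partly technical.

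Models unlisted in a library were taken as 0 and expected counts rounded to whole numbers. The quasi-likelihood test of edgeR 4.0.16 (R 4.3.3; TMM factors, default filterByExpr, robust) was fitted to all 9 libraries with 1 coefficient per group; the contrast was DO2 against DO4. The 13933 models tested held 98.9% of the counts, and the biological coefficient of variation was 61.1%. Log2 CPM used a prior count of 2. SE came from the fold change and F statistic. Alternatives were DESeq2 1.42.0, limma 3.58.1 on FPKM, other scalings and filters, and left-out libraries. Models were named by the gap rule (2 of each direction by identifier, 12 described; 0.5 CPM added), and the dominant models where a library is described; models named in the closing section were chosen after their values were seen. Members, lists and tests were chosen with earlier results of these data known. Gene lists could not be used without names.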

Additional observations from a re-analysis of the deposited data

How the results depend on the processing

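EdgeR's count of 0 calls was also 0 without the filter on low counts, with upper-quartile or DESeq2 size factors, with DO2 and DO4 fitted alone, under the replicate block, after thinning, with 28 dominant models dropped, and on log2(FPKM + 0.1) or unfiltered FPKM by limma. DESeq2 called 27 and limma on log2(FPKM + 1) 1. Leaving out each library gave 0 to 1 calls, the 1 being evm.model.scaffold114.44, lower in DO2, without DO4 library 3. The models at an unadjusted p under 0.05 numbered 684 of 13933 tested, against 1178 of 27060 with no filter and 1119 of 27214 by limma with no filter. DESeq2 gave 1076 among the 27060 models given to it. There were 381 of 12148 with DO2 and DO4 alone, and 1093 of 15115 without DO2 library 3 and DO4 library 1 together. Leaving out 1 library gave 672 (of 14817) to 1165 (of 15220). These counts rest on different numbers of models, so a larger count need not be a larger share. Against 4.91% in the main fit, the share was larger without DO4 library 1, alone or together with DO2 library 3. It was smaller with no filter, in edgeR or limma, and with DO2 and DO4 alone. Models without overlap numbered 1079 (7.74%). Counted over more models, they were 1798 with no filter (6.64%) and 1633 by limma with no filter (6%). Over the 27060 models given to DESeq2 they were 1812 (6.7%). Without both libraries they were 5282 (34.9%). Without 1 library they were 2403 to 3371, at shares of 15.9% to 22.1%. Fewer libraries separate fully more often even where groups do not differ, so these shares are not to be set against 7.74%. The share at an unadjusted p under 0.05 in the highest CPM quartile was 6%, against 9.08% without both libraries and 5.32% to 10.3% without 1. The median SD of DO2 minus that of DO4 was -0.09, against 0.03 on log2(FPKM + 0.1), -0.02 without both libraries, and -0.26 to 0.15 without 1 library, which sets 3 libraries against 2. Models counted in 1 group only numbered 31, against 14 after thinning, 2 with at least 10 counts (evm.model.scaffold17.4 and evm.model.scaffold409.2, both in DO2) and 77 to 104 without 1 library. The DO2 mean of models with a count exceeded that of DO4 by 627, and the difference was -264 after thinning (exact permutation p = 0.8). The cause of these changes was not tested where not stated. For the 4 named models none of 72 alternative values changed direction, largely because the groups were chosen without overlap, and 5 passed the threshold, 4 of them by DESeq2.

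No likeness by replicate number was seen: deviations from the group mean in same-numbered libraries had r of -0.153, -0.154 and -0.169 over models, and no library was most like its own number. Deviations within a group are tied together, and the labels record no tanks or batches. Whether same-numbered samples shared a tank or batch was therefore not tested. With the replicate block 441 models had an unadjusted p under 0.05 and the share in the highest CPM quartile was 3.7%.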

Other observations

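Models with consecutive numbers on a scaffold were compared as pairs. Over the 6253 pairs in which both models were tested, their log2 fold changes of DO2 over DO4 had a Pearson's r of 0.216 and the same sign in 55.2%; pairs share scaffold and libraries, and near copies may share reads. In 36 pairs both models had no overlap in the same direction (23 higher and 13 lower in DO2), and in 12 pairs they went opposite ways. The 36 are 6.9% of the 522 pairs whose first model had no overlap, against 4.26% of all models tested that were higher and 3.48% that were lower without overlap. At an unadjusted p under 0.05 there were 24 pairs in the same direction and 2 in opposite directions, of the 6253 pairs. Of all models tested, 2.94% were higher and 1.97% lower at that p. Whether the pairs go beyond this background was not tested. Of the 2301 scaffolds with a tested model, 7 held at least 3 models higher and 6 at least 3 models lower at that p, with up to 6 higher and 4 lower on 1 scaffold.

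Single libraries also held models that set them apart. DO4 library 1 was at least 4-fold below all other 5 libraries (0.5 CPM added) in 369 models, against 79 to 115 for each of the other libraries, and it is the library of the lowest depth. DO2 library 3 was at least 4-fold above all others in 110 models, against 42 to 67 for each of the other libraries.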
